A study of Mus musculus with 5 samples.

Results

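The genes described are 10 focal adhesion and actin assembly genes of the embryonic mouse heart: Vasp, Enah, Evl, Tns1, Tns3, Zyx, Vcl, Pxn, Tln1 and Flna. They were chosen by name, with earlier results of these data known. Every one of them was detected, as part of 13489 genes with a tag in at least 1 of 5 tag sequencing (Tag-seq) libraries. In Tag-seq, cDNA made with oligo(dT) beads is cut by NlaIII (site CATG), and the 17 bases that follow a site are counted. Tags were matched here to the last site of a transcript and to sites upstream of it. A gene is therefore represented by 1 or more short tags. A distinct sequence is called a tag type, and levels are given as tags per 1000000 tags of a library (TPM). All tissue came from hearts at embryonic day 10.5, Theiler stage 17. The 4 wild-type libraries were made from C57BL/6 embryos and hold the atrio-ventricular canal (AVC), the outflow tract (OFT), the atria and the ventricles. The fifth library holds the AVC of Twist1 knockout embryos on the ICR strain, so that genotype and strain differ together in it and cannot be told apart. Each library was a pool of tissue from at least 3 litters. Each condition has 1 library, so no difference has a replicate check, and each test compares libraries rather than conditions.

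Focal adhesions are the sites where a cell grips the surrounding matrix. There, talin links integrins to actin filaments and recruits vinculin, while paxillin, zyxin and the tensins are added as the adhesion matures. Ena/VASP proteins lengthen actin filaments at adhesions and at the leading edge, and filamin cross-links the filaments. Endocardial cells of the AVC and OFT cushions lose their junctions and migrate into cardiac jelly at this stage, a process that uses this machinery.

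The libraries held between 4223810 tags (ventricles) and 12977237 tags (null AVC). A tag type is listed when it was read at least 6 times, which sets the lowest level that 1 tag type can show at 0.988 TPM for AVC, 1.14 for OFT, 1.29 for atria, 1.42 for ventricles and 0.462 for null AVC. A gene given at 0 was not listed, and its level lay below that limit for each of its tag types. Haemoglobin tags made up 22.0% of the atria and 4.75% of the ventricles, but 0.367% of the AVC and 0.433% of the OFT. Twist1 was at 918 TPM for AVC, 299 for OFT and 4.55 for null AVC. Cushion mesenchyme markers (7 genes) summed to 1267 TPM for AVC, 1105 for OFT and 493 for null AVC, against 100 and 95.2 in the atria and ventricles, where Prrx1 was at 0. Cardiomyocyte markers (8 genes) summed to 20231, 22533, 18614, 7703 and 22252 TPM in the AVC, OFT, null AVC, atria and ventricles, with Nkx2-5 at 0 in both chambers. Endothelial markers (7 genes) lay between 180 TPM in the atria and 492 in the null AVC, and Emcn was at 0 in the AVC. In such pieces of tissue, fewer cells of a type and less RNA per cell cannot be told apart.

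The tags on which the results turn are shown first, because each gene's level is the sum of such tags and the tags of a gene did not always move together. The NlaIII site is in capitals, and positions are in GRCm38 with the GENCODE M21 gene models. The first group holds the main last-site tag of each gene other than Enah. The Vasp, Evl, Vcl, Zyx, Flna, Tns3 and Tns1 tags lie in the 3' UTR of the last exon, and the Tln1 tag lies in coding sequence of exon 55. The Pxn tag starts in the 3' UTR and its final bases fall in the poly(A) tail, so a transcript with another end would not have been counted with it.
Vasp: CATGgtcacacccacgctggc
Evl: CATGccacagagctgtcagaa
Vcl: CATGtccaccagatgtgcttt
Zyx: CATGgcctacaagtattgagg
Flna: CATGtcttctttggttctggg
Tns3: CATGttaaaagccacactgca
Tns1: CATGcctggcccctcacagca
Tln1: CATGctagccaggagaaactc
Pxn: CATGattttcacccgaaaaaa
Their positions are chr7:19257542-19257562 for Vasp (minus strand), chr12:108688403-108688423 for Evl (plus), chr14:21033489-21033509 for Vcl (plus), chr6:42358093-42358113 for Zyx (plus) and chrX:74223544-74223564 for Flna (minus). The Tns3 tag lies at chr11:8431855-8431875, the Tns1 tag at chr1:73910681-73910701 and the Tln1 tag at chr4:43532929-43532949, all on the minus strand. The Pxn tag starts at chr5:115555972 on the plus strand.

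The second group holds tags from sites upstream of the last one. Those of Vasp, Evl and Vcl departed in level from the last-site tag of the same gene. The 2 Enah tags departed from each other in the null AVC, and the Tns1 tag is the upstream one of its 2 main tags.
Vasp, start codon: CATGagcgagacggtcatctg
Evl, coding: CATGgaagaaatgaacaagct
Vcl, 3' UTR: CATGccactaactagtatgtg
Tns1, 3' UTR: CATGagacatactgatagaat
Enah, site 26: CATGctcccagcacagcttgt
Enah, site 29: CATGccgcaggcgtgtttcct
The Vasp tag begins with the start codon in exon 1 and runs into the next exon. The Evl tag is in exon 7 (chr12:108676191-108676211), the Vcl tag in exon 21 (chr14:21032308-21032328) and the Tns1 tag in exon 35 (chr1:73912955-73912975). Both Enah tags are in the long 3' UTR of exon 14, at the 26th site (chr1:181902693-181902713) and the 29th site (chr1:181903062-181903082) counted from the 3' end. In all, the 10 genes were represented by 72 tag types, 41 in a 3' UTR, 30 in coding sequence and 1 at a start codon. Of the 72, 11 were listed in all 5 libraries and 53 in neither chamber library. Chamber libraries listed fewer tag types of any gene, 35109 (atria) and 32822 (ventricles), against 58407 (AVC), 56744 (OFT) and 79271 (null AVC). The share of all tag types missing from both chambers was not counted, so the 53 cannot be read as particular to these genes. Enah had 17 tag types, Tln1 13, Zyx 10, Tns1 9, Flna and Vcl 6 each, Vasp 4, Evl 3, and Tns3 and Pxn 2 each.

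The first question was whether these genes, like many in the cushion-forming regions, were higher in the AVC or OFT than in the chambers (atria and ventricles summed). In the AVC, 8 of the 10 genes were called higher and 0 were called lower in the exact test of edgeR (two-sided, fixed dispersion of 0.12) (unadjusted p under 0.05). Pxn and Tns3 were not called. Of all 12506 genes tested, 43.4% were called higher and 8.12% lower, and the median log2 ratio of all genes was 1.23, so a higher level in the AVC was common. The median log2 ratio of the 10 genes was 2.84. With 5 tags put in for each tag type not listed, the medians were 2.31 for the 10 genes and 0.51 for all genes. The same 8 genes were called higher in the OFT, where 40.6% of 12453 genes were called higher and 8.88% lower, and the medians were 2.38 for the 10 genes and 1.07 for all genes. The chamber libraries are shared by both comparisons, so the calls in the OFT are not independent of those in the AVC. The 10 genes were chosen with earlier results known, so their counts and medians are not independent of these data.

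Scaling lowered these counts. With TMM scaling, which moved the median of all genes in the AVC to 0.28, 7 genes were called higher in the AVC (25.7% of all genes, with 17.5% called lower; 3208 higher and 2194 lower, against 5429 and 1015 with the deposited totals) and 7 in the OFT (26.2%; 3258 higher and 2200 lower, against 5057 and 1106). Zyx was the gene lost in both, and Pxn was then called lower in the OFT (17.7% of all genes). Leaving haemoglobin tags out of the totals gave counts of 8 and 8, with 39.4% and 36.7% of all genes called higher. Cushion mesenchyme markers were higher in the AVC and OFT than in the chambers too, as given above, and their part in these calls was not tested.

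**Figure D1:**
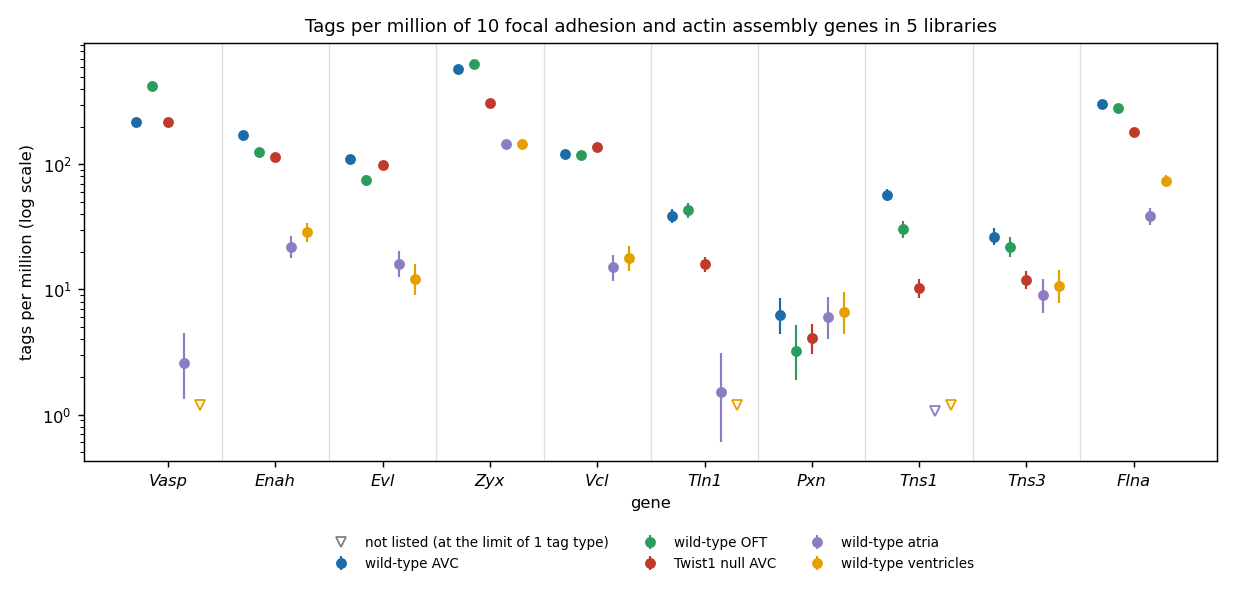
TPM (log axis) of each gene in the 5 libraries, with bars for the exact 95% counting interval and open triangles where a gene was not listed. Vasp, Tln1 and Tns1 fall to 2.57 TPM or less in the atria and ventricles, while the Pxn points of all 5 libraries lie between 3.23 and 6.63 TPM.

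Among the Ena/VASP genes, Vasp, which encodes an actin filament elongation factor, had the widest range. Its level was 219 TPM for AVC, 425 for OFT, 2.57 for atria, 0 for ventricles and 217 for null AVC. The AVC, OFT and null libraries were far above both chambers, which together held 12 Vasp tags. The ratio to the chambers was 162 in the AVC (95% counting interval 92.4 to 314; exact p 1.55e-13 by edgeR) and 315 in the OFT. The ratios were 52.5 and 80.4 with 5 tags put in for each tag type of the AVC or OFT that a chamber library did not list. Most of the gene's tags came from its last site, which gave 209, 404, 2.57, 0 and 207 TPM in the same order.

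The last-site tag of Vasp has a GC content of 70.6%, above that of the other 9 genes' last-site tags except the Tns1 tag, which is also at 70.6%. Over all genes the AVC over chamber ratio moved with the GC content of the tags, from a median log2 ratio of 0.83 in genes with a mean tag GC under 40% to 2.00 in genes at 60% or more. Correction for this trend removed the whole fitted curve, so it also moved the median log2 ratio of all genes to -0.01 in the AVC and -0.04 in the OFT. After it the Vasp log2 ratio was 5.16 in the AVC in place of 7.32, and 6.17 in the OFT in place of 8.28. Both were still called. With TMM, which changes the scaling alone, the Vasp values were 6.37 and 7.43. Of the 1362 genes at 100 TPM or more in the AVC, 22 were at least 50 times higher there than in the chambers, 5 of them among the 99 genes with a mean tag GC of 60% or more.

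Enah, a second family member, was at 172 TPM for AVC, 125 for OFT, 21.9 for atria, 28.6 for ventricles and 115 for null AVC. Over the chambers it was 6.88-fold higher for AVC (counting interval 5.95 to 7.98) and 4.99-fold for OFT. Evl, the third member, was at 110, 74.8, 16.1, 12.1 and 99.5 TPM in the same order, with ratios of 7.77 (6.41 to 9.48) and 5.28. For both genes the 2 chamber libraries lay below the other 3. The interval of the atria over ventricles ratio of Evl, 0.920 to 1.94, includes 1.

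Ena/VASP tags from different sites gave different ratios. Over the 5 Enah tag types at 10 TPM or more in any library, the AVC over chambers ratio ran from 3.52 at site 29 to 31.6 at the last site of the longest 3' UTR, and all of these tags were higher in the AVC. The start codon tag of Vasp was at 7.24 TPM for AVC and 12.0 for OFT, was not listed in either chamber, and was at 0.462 in the null AVC. Another Vasp tag, in coding sequence, was at 10.3 TPM in the null AVC, 2.28 in the OFT and 0 in the AVC.

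Talin 1, the protein of Tln1, couples integrins to actin and is needed for integrin activation. Tln1 was at 38.7 TPM for AVC, 42.9 for OFT, 1.5 for atria, 0 for ventricles and 15.9 for null AVC. The chambers together held 7 tags of this gene. Its ratio to the chambers was 49.1 in the AVC (counting interval 23.5 to 124; exact p 5.06e-09 by edgeR) and 54.5 in the OFT. Both were 3.74 when 5 tags were put in for each of the many tag types of the AVC or OFT that a chamber library did not list. At the last site alone the ratios were 23.0 (10.8 to 58.5) and 25.8. A further tag fits both Tln1 and its paralogue Tln2, read 36 times for AVC, 10 for OFT, 45 for null AVC and 0 for the chambers, and was not counted for either gene.

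Vcl, which encodes the talin-binding protein vinculin, was at 122 TPM for AVC, 118 for OFT, 15 for atria, 17.8 for ventricles and 137 for null AVC. Its ratios to the chambers were 7.49 in the AVC (6.26 to 9.01; exact p 0.000194 by edgeR) and 7.25 in the OFT. The AVC and OFT differed by no more than counting error, with a ratio of 0.968 (0.869 to 1.08) of OFT to AVC, and the atria and ventricles did not differ beyond it either.

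Zyxin, the protein of Zyx, is a LIM domain protein that recruits Ena/VASP proteins to adhesions under tension. The gene was at 583 TPM for AVC, 640 for OFT, 146 for atria, 146 for ventricles and 309 for null AVC. Over the chambers it was 3.98-fold higher for AVC (3.74 to 4.25; exact p 0.00744 by edgeR) and 4.38-fold for OFT. These calls did not hold with TMM scaling or after GC correction. A coding tag at its second site from the 3' end was at 39.3 TPM for AVC, 42.0 for OFT and 12.4 for null AVC and was not listed in the chambers.

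Pxn, which encodes the adaptor paxillin, stood apart. Its level was 6.25 TPM for AVC, 3.23 for OFT, 6.0 for atria, 6.63 for ventricles and 4.08 for null AVC. Neighbours in the order of levels did not differ beyond counting error, and the AVC over chambers ratio was 0.993 (0.640 to 1.53). The OFT over chambers ratio was 0.512 (0.279 to 0.895), which was not called with the deposited totals (exact p 0.26 by edgeR) and was called lower with TMM (log2 ratio of -1.81) and after GC correction. Between 17 and 53 tags per library lie behind these values, and the mean tag GC of Pxn, 31.1%, is the lowest of the 10 genes.

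The tensins bind integrin tails and actin at mature, elongated adhesions. Tns1 was at 57.1 TPM for AVC, 30.2 for OFT and 10.2 for null AVC, and none of its 9 tag types was listed in the atria or ventricles. Tags were put in, 5 per chamber library, for each Tns1 tag type listed in the AVC (7) or in the OFT (5). The AVC was then 7.25-fold and the OFT 5.37-fold above the chambers. A fill of all 9 tag types would give lower ratios. Exact p without the fill were 1.84e-13 and 5.62e-11 by edgeR. The AVC was 1.89-fold above the OFT (counting interval 1.56 to 2.30). Tns3 was at 26.5 TPM for AVC, 22.0 for OFT, 9.0 for atria, 10.7 for ventricles and 11.9 for null AVC. Its ratios to the chambers, 2.71 in the AVC (2.07 to 3.56; exact p 0.0612 by edgeR) and 2.25 in the OFT, were not called, and the null AVC did not differ from the ventricles beyond counting error.

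Flna, on the X chromosome, encodes the actin cross-linker filamin A. Its level was 302 TPM for AVC, 282 for OFT, 38.4 for atria, 73.4 for ventricles and 180 for null AVC. Over the chambers it was 5.49-fold higher for AVC (4.96 to 6.08; exact p 0.00123 by edgeR) and 5.12-fold for OFT. The ventricles were 1.91-fold above the atria (1.59 to 2.31), the largest ratio between the chambers among these genes, apart from Vasp and Tln1, which were listed in the atria alone. Tags 1 base away from its main tag summed to 23.5 TPM in the AVC and were not added to it.

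Correction for tag GC left 5 genes called higher in the AVC (24.6% of all genes called higher, 21.6% lower): Vasp, Evl, Tns1, Vcl and Tln1. In the OFT it left 4, Vasp, Tns1, Vcl and Tln1, with Pxn called lower (24.7% and 22.6% of all genes). The log2 ratios in the AVC after correction were 3.99 for Tln1, 1.53 for Vcl, 1.48 for Evl, 1.25 for Enah, 1.02 for Flna, 0.54 for Zyx, 0.14 for Tns3 and -0.95 for Pxn. This correction also rescaled all genes, as given above, so a changed call cannot be tied to GC content alone. Zyx lost its calls under TMM scaling too, and Pxn was then called lower in the OFT. The Pxn log2 ratio in the AVC was -0.96 under TMM. Calls of Enah and Flna, and of Evl in the OFT, held under TMM. GC content moved with the ratio over all genes, and the parts of GC content and scaling in the changed calls were not tested.

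**Figure D2:**
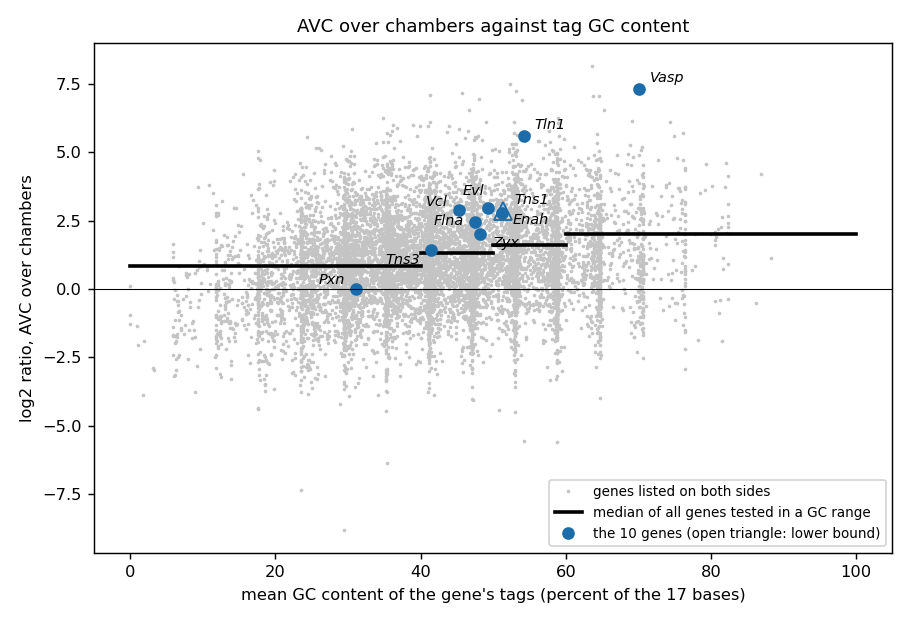
The log2 ratio of AVC over chambers against the mean GC content of each gene's tags, for all genes listed on both sides (grey), with the median of all genes in 4 GC ranges (black lines) and the 10 genes (blue). The medians rise from 0.83 to 2.00 with GC content, and Vasp and Tln1 lie well above the line of their range.

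The OFT was then set against the AVC. None of the 10 genes was called by the edgeR exact test, with 5.22% of 12544 genes called higher and 7.36% lower. Vasp had the largest rise, 425 against 219 TPM, a ratio of 1.95 (counting interval 1.82 to 2.08; exact p 0.186). Pxn and Tns1 had the lowest ratios, 0.516 and 0.528. Enah and Evl, the other Ena/VASP genes, were at 0.725 and 0.679, so the Vasp value and those of its family lay on opposite sides of 1. The ratios of Vcl, Tln1, Zyx and Flna lay between 0.933 and 1.11. Counting error alone gives intervals that leave out 1 for Vasp, Enah, Evl, Tns1, Zyx, Pxn and Flna, but it leaves out the spread between embryos.

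The third question was which of these genes differed in the AVC of Twist1 null embryos. Tns1 was called lower, 1 of the 10 genes, and 0 were called higher, while 12.7% of 12966 genes were called lower and 11.9% higher. Tns1 fell from 57.1 to 10.2 TPM, which is 5.57-fold lower (ratio 0.179, counting interval 0.146 to 0.220; exact p 0.0013, adjusted p 0.0234 by edgeR). Its last-site tag fell from 20.7 to 4.08 TPM (ratio 0.197, 0.140 to 0.273) and its upstream 3' UTR tag from 26.3 to 3.16 TPM (ratio 0.12, 0.0834 to 0.170), so both main tags fell. The log2 ratio was -2.48 with the deposited totals, -2.24 with TMM and -2.04 after GC correction, and the call was lost at a dispersion of 0.4. Cushion mesenchyme markers were also lower in this library, at 493 against 1267 TPM, and haemoglobin tags higher, at 3.05% against 0.367%, and the part of either in the Tns1 value was not tested.

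**Figure D3:**
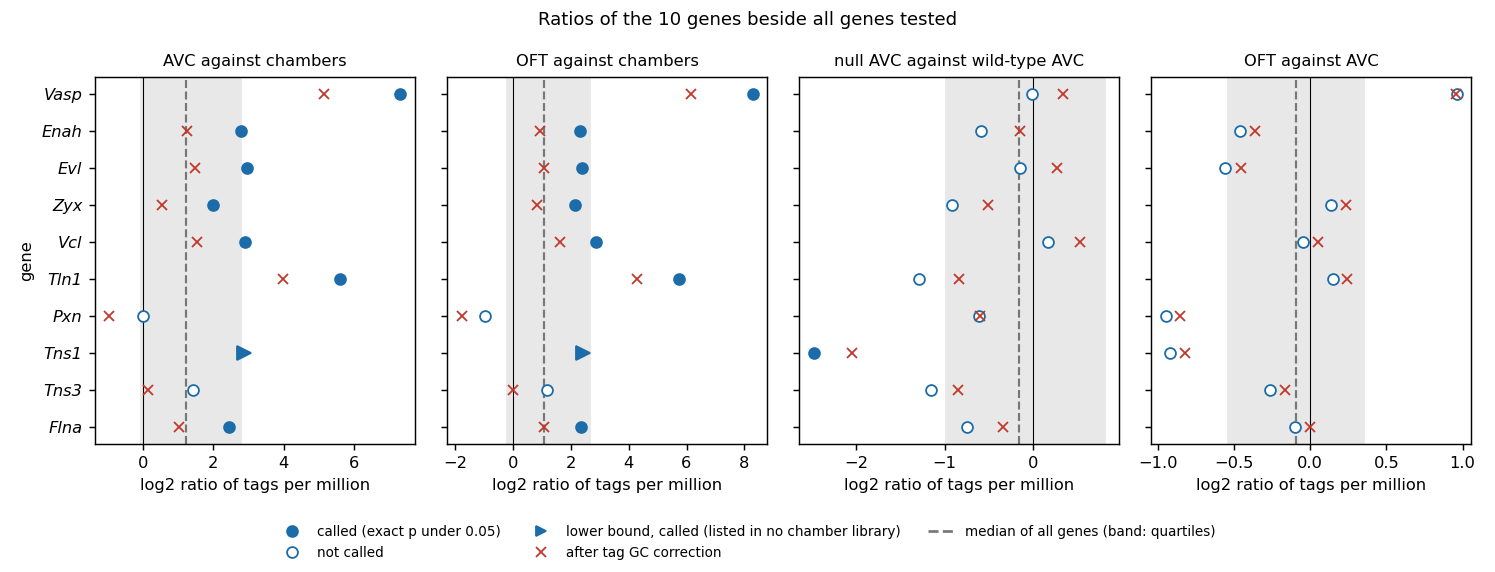
Log2 ratios of the 10 genes in the 4 comparisons (filled where called), with the tag GC corrected value as a cross and, for all genes tested, the median (dashed line) and quartiles (grey band). In the AVC and OFT against the chambers 9 of 10 genes lie above the median of all genes, and in the null AVC Tns1 lies lowest, at -2.48.

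The other 9 genes were not called in the null AVC. Vasp was at 0.994 of its wild-type level (counting interval 0.931 to 1.06), Vcl at 1.12 (1.03 to 1.22) and Evl at 0.903 (0.822 to 0.993). The ratios of Enah, Pxn and Flna were 0.667, 0.653 and 0.597. The Pxn value sums 2 tag types, and its main tag alone had a ratio of 0.505 (0.317 to 0.807). The other Pxn tag, at 0.925 TPM in the null AVC, was listed in no other library. The ratios of Zyx and Tns3 were 0.531 and 0.451. With an exact p of 0.207 for Zyx and 0.127 for Tns3 by edgeR, these values missed the threshold, which does not show that they were unchanged. The median log2 ratio of the 10 genes was -0.68, with -0.16 for all genes, and 3 of the 10 lay above that median.

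Tln1 had a ratio of 0.410 (0.339 to 0.497; exact p 0.0834 by edgeR) when its tags were summed, and of 0.877 (0.692 to 1.12) at its last site. The last-site tag was at 18.1 TPM in the wild type and 15.9 in the null AVC. All of the difference beyond that lay in 8 upstream coding tags, at 0.988 to 5.27 TPM in the wild-type AVC, none of which was listed in the null AVC although that library has the lowest listing limit. In the OFT 9 upstream tags of Tln1 were listed. Over all genes, the share of tags at the last site was 70.5% in the wild-type AVC and 67.5% in the null AVC. The part of site usage in the Tln1 value was not tested.

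For Evl and Vcl, the upstream tags at 10 TPM or more and the last-site tag went opposite ways with the deposited totals. The last-site tag of Evl was at 101 TPM in the wild type and 67.0 in the null AVC (ratio 0.663, 0.597 to 0.736), and its coding tag was at 9.05 and 32.5 TPM (ratio 3.59, 2.71 to 4.85). For Vcl the last-site ratio was 0.869 (0.785 to 0.962), against 2.41 (1.88 to 3.12) at the fourth site and 1.98 (1.5 to 2.65) at the third. A weaker Vcl tag at the fifth site fell, from 2.30 to 0.539 TPM. With TMM the log2 ratio of the summed Vcl tags was 0.40 in place of 0.17, and the ratios of single tags were not rescaled. The 2 Enah tags at sites 26 and 29 had ratios of 0.499 (0.427 to 0.583) and 1.61 (1.34 to 1.95). The start codon tag of Vasp fell to 0.0638 of its wild-type level while the last-site tag stayed at 0.987 (0.923 to 1.06). These intervals cover counting error only, so a sum of 1.12 for Vcl or 0.903 for Evl combines tags that did not move together.

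**Figure D4:**
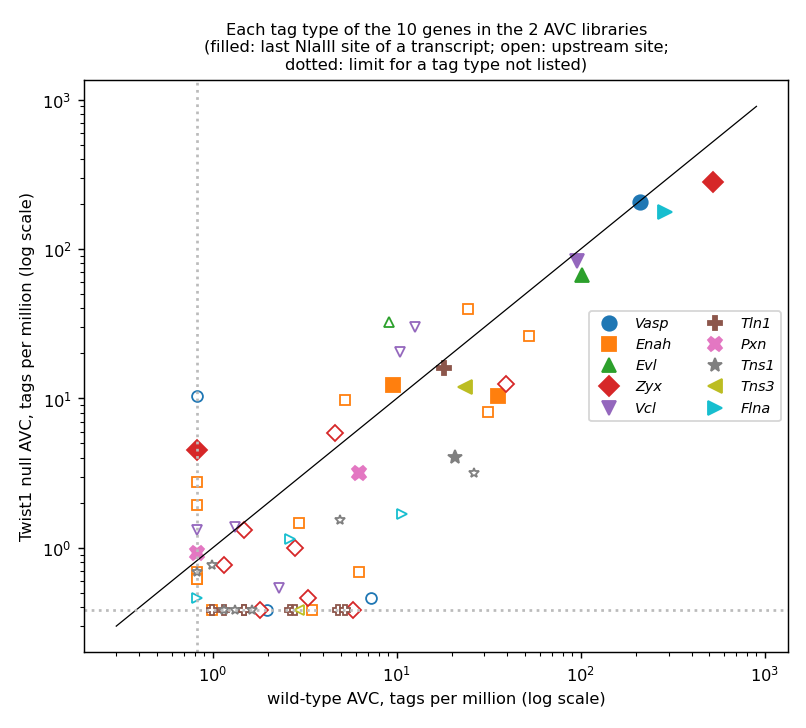
Each tag type of the 10 genes in the wild-type and the null AVC, in TPM on log axes, with last-site tags filled, upstream tags open, the line of equal levels, and dotted lines where a tag type not listed is placed. The 2 main Tns1 tags, at 20.7 and 26.3 TPM in the wild type, lie well under the line, the last-site tags of Vasp, Vcl and Tln1 lie near it, and the upstream Tln1 tags sit on the lower dotted line.

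The wider machinery was read from a list of 33 other focal adhesion genes and one of 50 other actin assembly genes. Both lists were also chosen with earlier results of these data known. Of 32 measured focal adhesion genes, 11 were called higher and 2 lower in the AVC than in the chambers, and of 49 measured actin assembly genes 21 were called higher and 3 lower (all genes: 43.4% and 8.12%). Their median log2 ratios were 1.0 and 1.37, or 0.82 and 1.19 with 5 tags for each tag type not listed, beside 1.23 and 0.51 for all genes. In the OFT 13 of 32 and 21 of 48 were called higher and 2 and 2 lower (all genes: 40.6% and 8.88%). With TMM scaling the higher calls of both lists together went from 32 to 14 in the AVC and from 34 to 13 in the OFT, with 25.7% and 26.2% of all genes called higher.

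Actn1, which encodes the actin cross-linker alpha-actinin 1, was at 931 TPM for AVC, 1638 for OFT, 58.5 for atria and 142 for ventricles, a ratio to the chambers of 9.5 for AVC and 16.7 for OFT. The adaptor gene Crkl (9.39-fold) and Fblim1 (7.74-fold), whose product binds filamin, were the other focal adhesion genes with the smallest p in the AVC. Of the actin genes, Cttn, which encodes cortactin, was at 207 TPM for AVC and 10.2 for chambers (20.2-fold). The formin gene Diaph1 was at 35.6 and 1.69 TPM (21.1-fold). A further formin gene, Fmnl3, was at 7.41 TPM for AVC and 11.6 for OFT and was listed in neither chamber. In the OFT, Nedd9, an adaptor gene of the Cas family, was 10.3-fold higher than in the chambers.

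Genes called lower than in the chambers included regulators of actin monomers and filaments and some LIM protein genes. Tmsb4x, which encodes the actin-sequestering peptide thymosin beta 4, was at 236 TPM for AVC, 486 for OFT, 1505 for atria and 1600 for ventricles, or 6.56-fold lower for AVC than for chambers. Dstn, the actin-depolymerizing factor destrin, was 2.77-fold lower in the AVC and 4.95-fold lower in the OFT, and the small GTPase gene Rac1 was 3.20-fold lower in the AVC. The LIM protein gene Trip6 was at 41.6 TPM for AVC and 174 for chambers (4.18-fold lower), and Pdlim7 was 2.97-fold lower. In the OFT Trip6 was 3.24-fold and Tes 3.78-fold lower. The Rac1 calls in the AVC and, given next, in the null AVC were both lost when tags starting with T were left out.

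In the null AVC, 2 of 32 focal adhesion genes were called higher and 2 lower, and 3 of 48 actin assembly genes higher and 5 lower, with 11.9% and 12.7% of all genes called. Median log2 ratios were 0.10 and -0.10, against -0.16 for all genes. Flnc, a filamin gene related to Flna, was 4.07-fold higher. Tln2, the paralogue of Tln1, was at 49.4 and 150 TPM (3.04-fold lower), a call lost with TMM scaling. Arpc3, which encodes a subunit of the Arp2/3 complex, was 6.68-fold lower, and Fmnl3 was 6.01-fold lower. Diaph2, at 1.32 TPM in the wild type, was not listed in the null AVC. Rac1 (4.53-fold), Tmsb4x (4.41-fold) and Pfn1 (3.06-fold), which encodes profilin 1, were higher, as was Git1 (3.66-fold). Against the AVC, the OFT had 1 of 32 focal adhesion genes and 2 of 48 actin assembly genes called lower (7.36% of all genes). The actin genes were Apbb1ip and Diaph2, both not listed in the OFT. No gene of either list was called higher (5.22% of all genes). The calls of Tes, Git1, Diaph2 and, in the AVC, Fmnl3 were lost with 5 tags for each tag type not listed. The Fblim1 call was lost after GC correction.

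The genes whose levels over the 5 libraries were closest to those of Vasp, by the mean absolute difference in log2(TPM + 1), were Calr (0.555), Cotl1 (0.853) and Bmper (0.969) of 11178 genes with at least 50 tags. Calr, which encodes the endoplasmic reticulum chaperone calreticulin, was at 289 TPM for AVC, 407 for OFT and 302 for null AVC and was not listed in either chamber, with a mean tag GC of 31.5%. Cotl1, an actin-binding protein gene, was at 198, 296 and 60.4 TPM in the same libraries and at 3.21 and 1.89 in the atria and ventricles. Bmper, a modulator of BMP signalling, was at 173, 304, 118, 10.9 and 1.66 TPM in the AVC, OFT, null AVC, atria and ventricles. In the null AVC, Cotl1 was further below its wild-type level than Vasp was.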

How the data were processed

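Tag-seq counts were analysed from 5 libraries. The deposited files give, per the study's methods, raw counts of reads for each tag type with more than 5 tags in a library, made by the authors from reads cut to the NlaIII site and the 17 bases after it. The authors' removal of 1-base mismatches and their mapping to genes were not taken over. Per the labels the genome build was mm9, whereas GRCm38 gene models (GENCODE M21) were used here to name tags, since tags were matched by sequence. Virtual tags came from every NlaIII site of 33363 transcripts linked to RefSeq, with 20 adenines added, giving 315529 tags, 308986 of them of 1 gene among 24297 genes. Between 70.7 and 74.6% of the tags in a library matched the sense strand of 1 gene and were summed per gene. Uniqueness in the genome was not checked, since no genome sequence was used.

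TPM are tags per 1000000 deposited tags. Each level has an exact 95% Poisson interval and each ratio an exact counting interval, which cover counting error only. Tests were edgeR 4.0.16 exact tests (R 4.3.3, dispersion 0.12, library sizes equal to the deposited totals), fitted over all genes with a tag on either side, with an unadjusted p under 0.05 as the study's threshold and without covariates. Adjusted p are Benjamini-Hochberg values over all genes tested. A gene not listed on 1 side has a bound, made by putting in 5 tags wherever a tag type of the other side is missing. Tag types listed on neither side are not put in, so the bound leaves them out. Alternatives (16 for comparisons with the chambers, 14 for the others) changed the scaling (TMM, DESeq2 1.42.0 size factors, totals without haemoglobin), dispersion (0.05, 0.4), adjustment, gene minimum (50 tags), tag minimum (more than 10), fill, site, mismatches (ratio of 100), depth, first base, tag GC (loess, span 0.5, prior count 0.125, likelihood ratio test) and chamber library. The GC correction removed the whole fitted curve, so it also rescaled all genes. The test was checked on simulated data.

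The 10 genes and the gene lists were chosen with earlier results of these data known. Named genes are the 10 genes, up to 3 genes of smallest exact p per direction, comparison and list, tag types at 10 TPM or more, the 3 genes closest to Vasp, and Twist1 as a check of the labels. Marker sums of smooth muscle, in the order AVC, OFT, null AVC, atria and ventricles, were 502, 1111, 1032, 285 and 402 TPM, of epicardium 242, 78.8, 158, 280 and 241, of erythroid cells 2426, 3083, 27354, 215379 and 46723, of platelets 39.7, 6.45, 7.86, 34.3 and 46.6, and of leukocytes 5.27, 1.52, 0.771, 1.5 and 0. Lpxn and Pfn3 of the wider lists were not detected. Some genes that the rule names are not reported here.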

Additional observations from a re-analysis of the deposited data

Results flagged for a closer look

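Tags that match a gene's antisense strand were not part of any comparison, and 8 of the 10 genes had such tags above the level in both chambers in at least 1 other library. The share of all genes with such tags was not counted, so this count cannot be read as particular to these genes. The atria and ventricles also listed fewer tag types of any kind, 35109 and 32822, against 58407 for AVC, 56744 for OFT and 79271 for null AVC. Enah had antisense tags at 24.4 TPM in the AVC, over up to 11 tag types, against 1.71 in the atria and 4.74 in the ventricles. Zyx had them at 15 TPM in the OFT and Flna at 16.1 TPM in the AVC, with none listed in either chamber. Pxn had 10.7 TPM of antisense tags in the AVC, against 6.63 in the ventricles and none listed in the atria, which is more than its 6.25 TPM of sense tags in the AVC. The highest antisense levels of Tns1 (4.44 TPM in the AVC), Vasp (4.24 in the null AVC), Tns3 (2.85 in the OFT) and Vcl (2.28 in the OFT) were lower, and none of these tags was listed in a chamber library.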

How the results depend on the processing

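Of 600 results of the 10 genes under the alternatives, 565 kept their side of the threshold, 20 lost a call and 15 gained one. Among results called before or after the change of setting, 0 changed direction. Results called in neither could change sign within the 565. The uncalled Vasp log2 ratio of null over wild-type AVC, for example, went from -0.008 to 0.23 with TMM. Calls of Vasp, Evl, Tns1, Vcl and Tln1 in the AVC, and of Vasp, Tns1, Vcl and Tln1 in the OFT, held in all 16 alternatives. With a dispersion of 0.4, the genes called higher went from 8 to 5 in the AVC and from 8 to 4 in the OFT, the genes called lower in the null AVC from 1 to 0 (20.3, 19.4 and 2.37% of all genes). After tag GC correction 5 were called higher for AVC and 4 for OFT (24.6 and 24.7%). With a dispersion of 0.05, 4 genes were called lower in the null AVC (Tns1, Tns3, Zyx and Tln1; 23.2% of all genes) and 1, Vasp, higher in the OFT than in the AVC (8.51%). With tags starting with T left out, 3 were called lower in the null AVC (Tns1, Tns3 and Flna; 19.2% of all genes), since the last-site tags of Tns3 and Flna then drop out. The other adhesion and actin genes measured were 32 and 49 in the AVC, and 32 and 48 in the OFT. Their higher calls in the AVC were 32 with the deposited totals and 14 with TMM or DESeq2 size factors. They were 11 at a dispersion of 0.4 and 9 after GC correction. Of all genes, 43.4% were called higher with the deposited totals, 25.7% with TMM, 25.2% with DESeq2, 20.3% at 0.4 and 24.6% after GC correction. In the OFT the calls were 34, 13, 10 and 10, beside 40.6, 26.2 (TMM), 26.0 (DESeq2), 19.4 and 24.7% of all genes. In the null AVC, 7 of these genes were called lower, with 1 to 15 over the alternatives. All genes called lower were 12.7% with the deposited totals and 2.37 to 23.2% over the alternatives. Higher calls of these genes were 5, with 0 to 8 over the alternatives, beside 11.9% and 3.90 to 18.8% of all genes. The causes of these changes were not tested. No paired analysis was possible because each condition has 1 library and the labels carry no replicate numbers. Genes under the listing limit, such as Tns1 in the chambers, have bounds only.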
